A study of Mus musculus with 6 samples.

Results

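Bulk 3' end RNA-seq of KPC cells was used to ask how the genes of the actin cytoskeleton and of focal adhesions were expressed when Brca2 was silenced. A named list of 54 genes was compared: the 2 cytoplasmic actins, tropomyosins and other filament side binders, nonmuscle myosins, crosslinkers, monomer binding and nucleating proteins, membrane linkers, focal adhesion proteins, small GTPases and the ROCK kinases, and the serum response factor. The list was matched to the deposited counts by gene symbol, and 52 of the 54 were found among the 10616 genes of the table. All 52 received an adjusted p, as did 9997 genes in all. The 2 that were not matched are Diap1, the formin that RefSeq names Diaph1, and Mkl1, the SRF coactivator that RefSeq names Mrtfa. Both are in the table under the RefSeq symbols and are described apart from the 52.

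KPC cells are a mouse pancreatic ductal adenocarcinoma line, and all 6 libraries share that background. The shBrca2 group (3 libraries) carried a lentiviral pLKO.1 short hairpin RNA against Brca2. The shControl group (3 libraries) carried a non-targeting hairpin in the same vector. Both were selected with puromycin and cultured in growth medium with serum, and live cells, negative for propidium iodide, were sorted before mRNA capture. How many hairpins or clones were used is not given in the sources used here. It is also not clear whether the 3 libraries of a group came from separate cultures, so p-values measure the spread between these libraries, which may be technical.

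Actin filaments are built from monomers that profilin and thymosins hold in store and that the Arp2/3 complex and formins add to filaments. Tropomyosins, alpha-actinins and nonmuscle myosin II turn filaments into contractile bundles, which pull on the substrate through talin, vinculin, zyxin and other proteins of the focal adhesion. RhoA and its ROCK kinases drive contraction, and monomer depletion frees the MRTF coactivators to switch on SRF target genes, many of which encode the cytoskeleton itself. In pancreatic duct epithelium and its tumors this machinery underlies cell shape, polarity and migration.

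Total counts ranged from 1519340 to 2452467 per library. Counts come from the 3' ends of transcripts, and whether they are of reads or of molecules is not given. Levels are compared between libraries. Ranks of genes by count are given as descriptions only. Normalized counts are counts divided by DESeq2 size factors, and the base mean is their mean over the 6 libraries. Brca2 was present at raw counts of 10, 11 and 14 in shBrca2 libraries 1, 2 and 3 and of 33, 52 and 33 in shControl libraries 1, 2 and 3. Every shBrca2 library was below every shControl library (log2 fold change -1.61 ± 0.44, SE; DESeq2 likelihood ratio test, adjusted p = 0.0290), although the call was lost when shBrca2 library 2, shBrca2 library 3 or shControl library 2 was left out (adjusted p = 0.152, 0.233 and 0.371). Of the epithelial markers, 6 of 6 were in the table, with summed levels of 8045 to 8357 CPM in shBrca2 and 8402 to 9176 CPM in shControl, carried by keratins, while Epcam had a base mean of only 6.52. Of the other cell type markers, 1 of 8 fibroblast genes (Col1a2, 5.27 to 8.20 and 3.91 to 10.5 CPM), 3 of 6 smooth muscle genes (6.84 to 11.2 and 6.93 to 31.5 CPM), 2 of 6 immune genes (Cd68 and Cd14, 108 to 176 and 155 to 227 CPM) and 0 of 4 endothelial genes were in the table. Those outside it were not analysed here. In bulk RNA a smaller number of cells that express a gene and less RNA per cell cannot be told apart.

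Most of the actin and focal adhesion genes did not pass the test, and the 4 that did were split between directions. Vil1 and Tns4 were higher in shBrca2, and Smtn and Zyx were lower. A gene counted as called when its adjusted p was under 0.1, its log2 fold change exceeded 0.5 in either direction and its base mean exceeded 5. By this rule 4 of the 52 genes (7.69%) were called, while 1.27% of all 9997 genes tested were called. The 2 higher genes made up 3.85% of the 52 where 0.770% of all genes were called higher, and the 2 lower genes another 3.85% where 0.50% were called lower. At an unadjusted p under 0.05 the count was 9 of 52 (17.3%) against a background of 8.66%. None of these backgrounds was matched for count level. A base mean of at least 20 was reached by 49 of the 52 genes and by 7796 of the 10616 genes of the table. Leaving out 1 library at a time gave between 1 and 4 called genes of the list, and the count fell to 1, Vil1, without shBrca2 library 3 and without shControl library 2, and to 2, Tns4 and Zyx, without shControl library 3.

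There was no common direction over the list. The log2 fold change was above 0 in 26 genes and below 0 in 26, with a median of -0.017 where the median of all genes tested was -0.00094. The median absolute log2 fold change was 0.242 in the list and 0.227 in all genes tested. Groups did not overlap where every shBrca2 library lay above or below every shControl library. This held in 19 of the 52 genes (36.5%), against 20.6% of all genes tested, which were not matched for count level. In 8 of the 19 the shBrca2 libraries were above (Myh14, Vil1, Ilk, Tns4, Lima1, Arpc5, Rhoc and Rock1). In 11 they were below (Tpm1, Smtn, Myh9, Actn1, Pfn1, Gsn, Msn, Zyx, Tln1, Pxn and Parva). Arranged by role, the fold changes show both directions within most roles.

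**Figure D1:**
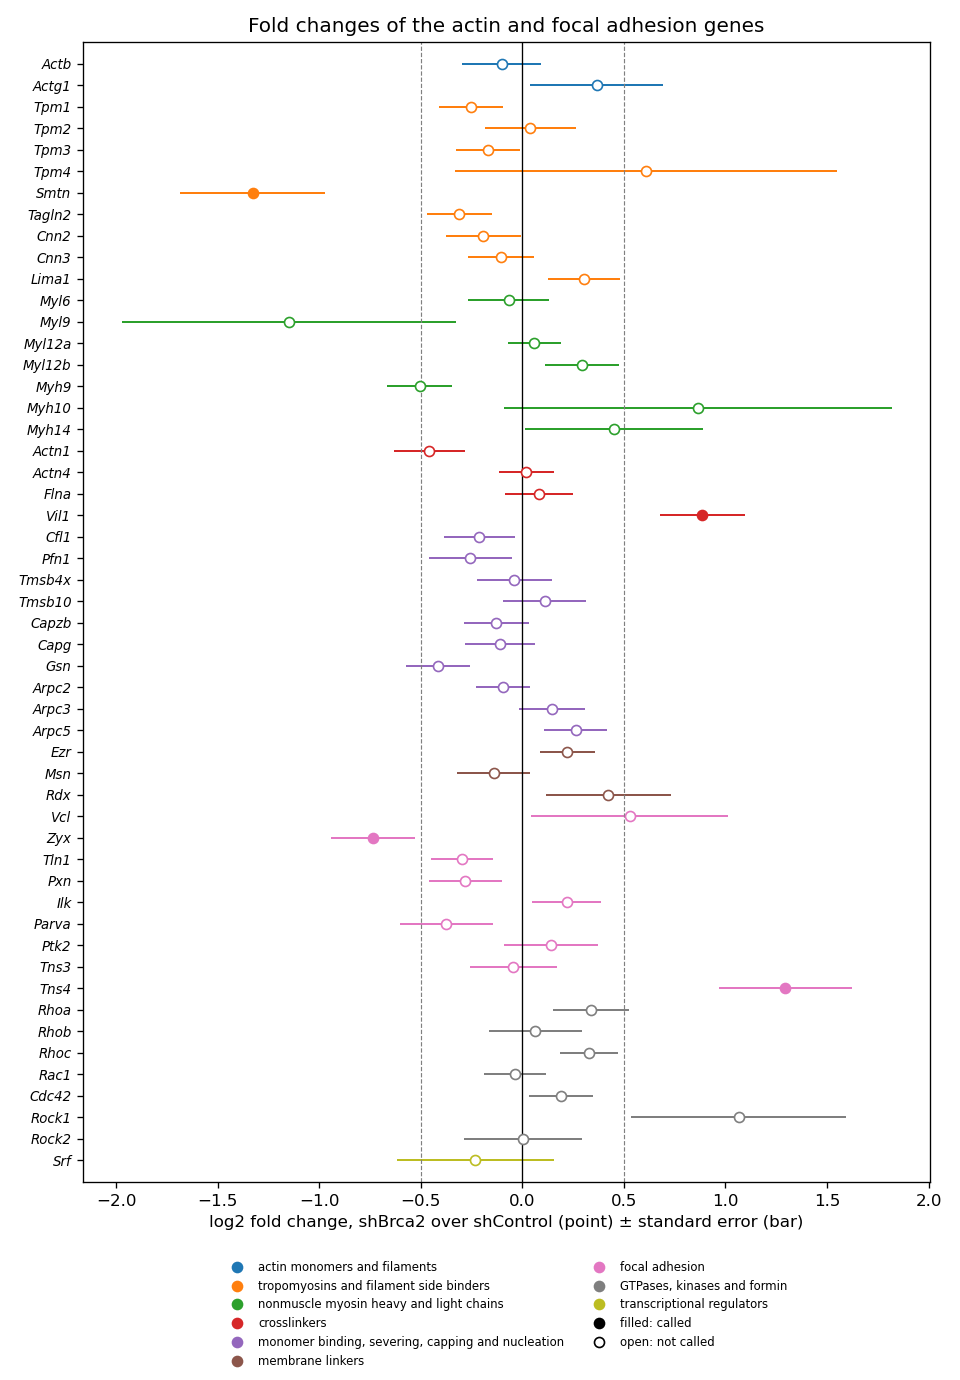
Log2 fold change of each of the 52 genes, shBrca2 over shControl (x axis), with points for the DESeq2 estimate, bars for its standard error, colours for the role and dashed lines at the fold change minimum of 0.5 in either direction. The 4 filled points are the called genes, Vil1 and Tns4 to the right and Smtn and Zyx to the left, and the widest bars belong to Tpm4, Myh10 and Myl9.

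Among the 4 crosslinkers, which tie filaments into bundles and networks, 1 was called. Vil1 encodes villin, which bundles, caps and severs actin in the microvilli of epithelial cells. Its normalized counts were 271, 245 and 201 in shBrca2 libraries 1, 2 and 3 and 148, 135 and 104 in shControl libraries 1, 2 and 3. All shBrca2 libraries were above all shControl libraries. The log2 fold change was 0.89 ± 0.21 (SE; adjusted p = 0.00693), a ratio of 1.85, and the call was lost without shBrca2 library 1 (adjusted p = 0.126) or shControl library 3 (0.103). Usp37, which lies on the opposite strand and overlaps Vil1 in GENCODE vM39, had a log2 fold change of -0.70 ± 0.36 (adjusted p = 0.589). The strand setting of the counting is not given in the sources used here, so reads in the stretch that such a pair shares cannot be told apart. How far the genes of a pair overlap, and whether their 3' ends lie in the overlap, was not measured. Opposite-strand genes of the table also overlap Actg1, Cfl1, Ilk, Pfn1, Tln1, Vcl, Rac1, Rhoa, Myl6 and Myh10, whose counts carry the same doubt. Of the 6 epithelial markers, 1 was called, the ductal keratin gene Krt7 (log2 fold change 1.21 ± 0.20, adjusted p = 2.07e-06, higher in shBrca2). The others were not called, with log2 fold changes of 0.32 for Cdh1, -0.06 for Krt19, -0.12 for Krt18, -0.17 for Krt8 and -0.55 for Epcam. The part of epithelial content in the Vil1 result was not tested. Vil1 lies at chr1:74409384-74435560 on the plus strand of GRCm38.p6, the assembly that mm10 denotes, and its upstream stretch is shown because it is the one called gene with a CArG box, the SRF binding motif, in the window searched. The 150 bases before its RefSeq start (chr1:74409234-74409383) read as follows, with the CArG box in capitals.
Vil1: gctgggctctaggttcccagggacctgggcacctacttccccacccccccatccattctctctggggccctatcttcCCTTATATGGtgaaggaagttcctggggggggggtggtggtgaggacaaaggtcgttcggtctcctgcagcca

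Actn1, which encodes an alpha-actinin of stress fibers and adhesions, was the other crosslinker whose groups did not overlap. It had 859, 909 and 606 normalized counts in shBrca2 and 1023, 1032 and 1203 in shControl. All shBrca2 libraries were below the shControl ones, and shBrca2 library 3 was the lowest by a wide margin. A log2 fold change of -0.46 ± 0.17 did not pass the test (adjusted p = 0.292), and it was -0.29 without shBrca2 library 3. Its paralog Actn4 stood at 0.02 ± 0.13, and filamin A, encoded by Flna, at 0.08 ± 0.17 on the log2 scale; both took the other sign without shBrca2 library 2 (-0.018 and -0.013).

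Of the 9 tropomyosins and side binders, Smtn was called. It encodes smoothelin, a protein of contractile filament bundles that is best known from smooth muscle. Its normalized counts were 23.2, 20.8 and 20.01 in shBrca2 and 45.5, 60.4 and 53.4 in shControl. The lowest shControl library was well above the highest shBrca2 library, and the shBrca2 libraries lay close together. The raw counts were only 17, 22 and 23 in shBrca2 and 45, 72 and 54 in shControl. With so few counts such closeness can arise in sampling and does not show that the gene varies little. The log2 fold change was -1.33 ± 0.36 (adjusted p = 0.0265), so that the shBrca2 level was 0.399 of the shControl level. The call held without shBrca2 library 1 or shControl library 1 and was lost without any of the other 4 libraries (adjusted p = 0.109 to 0.327), with log2 fold changes of -1.43 to -1.22 over the 6 fits. Of the smooth muscle markers in the table, Tagln had 20.4, 10.4 and 12.2 normalized counts in shBrca2 and 53.6, 12.6 and 14.8 in shControl. Tagln was highest in shControl library 1, and Cnn1 and Actg2 were near the floor, with base means of 2.17 and 2.60. Without shControl library 1, Smtn was -1.43 ± 0.41 (adjusted p = 0.0403). The part of smooth muscle content in the Smtn result was not tested. Selenom overlaps Smtn on the opposite strand in GENCODE vM39 and had 109, 107 and 96.6 normalized counts in shBrca2 and 39.4, 67.1 and 75.1 in shControl (log2 fold change 0.78 ± 0.28, adjusted p = 0.218). Reads in the stretch that these 2 genes share cannot be told apart without the strand setting, and the extent of that stretch was not measured. Smtn lies at chr11:3517522-3539292 on the minus strand (GRCm38.p6). The 150 bases before its RefSeq start (chr11:3539293-3539442, minus strand) are shown beside the Vil1 stretch because the gene was called in the other direction, and they hold no CArG box.
Smtn: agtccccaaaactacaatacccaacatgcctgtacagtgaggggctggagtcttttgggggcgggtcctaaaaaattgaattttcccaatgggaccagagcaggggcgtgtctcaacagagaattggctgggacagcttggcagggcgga

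The other 8 genes of this role were not called. Tpm1, encoding a tropomyosin that stabilizes stress fibers, was below in every shBrca2 library, at 1557, 1549 and 1126 normalized counts in shBrca2 against 1804, 1606 and 1630.5 in shControl (log2 fold change -0.25 ± 0.16, adjusted p = 0.724). Tagln2, a transgelin and one of the 6 genes of the list with the highest counts, had 2957, 3141 and 2467 normalized counts in shBrca2 and 2906, 4023 and 3690.1 in shControl. Its groups overlapped, since shControl library 1 was as low as the shBrca2 libraries (log2 fold change -0.31 ± 0.16, adjusted p = 0.589). Lima1, which encodes the filament-stabilizing protein EPLIN, was above in every shBrca2 library (log2 fold change 0.30 ± 0.18, adjusted p = 0.673). Tpm2, Tpm3, Cnn2 and Cnn3 had log2 fold changes between -0.19 and 0.04, with overlapping groups. Tpm4 varied more between libraries of a group than between groups and is described with the spread.

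The 9 focal adhesion genes held 1 gene called higher and 1 called lower, and the groups did not overlap in 6 of the 9. Over all genes tested these shares were 1.27% and 20.6%. Tns4 encodes a short tensin that lacks the actin-binding part of the other tensins and binds integrin tails. Its normalized counts were 62.7, 57.7 and 61.8 in shBrca2 and 24.2, 25.2 and 24.7 in shControl. Each group was tight, with a gap between them that was far wider than either, and the log2 fold change was 1.29 ± 0.33 (adjusted p = 0.0141), a ratio of 2.45. Its fold change stayed between 1.27 and 1.33 on the log2 scale when each library was left out, and the call was lost without shBrca2 library 3 (adjusted p = 0.135) or shControl library 2 (0.107). Its pooled within-group SD on the log2 scale was 0.0481, at percentile 0.69 among genes with a base mean of at least 20. The raw counts were only 46, 61 and 71 in shBrca2 and 24, 30 and 25 in shControl. At such counts an SD this low can arise in sampling and does not show that the gene varies little. Tns4 lies at chr11:99065678-99089306 (GRCm38.p6). Its paralog Tns3, a full-length tensin, was at -0.04 ± 0.21.

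Zyx encodes zyxin, a LIM-domain protein that moves from adhesions to strained stress fibers and recruits filament-elongating proteins. Its normalized counts were 279, 187 and 192 in shBrca2 and 342, 432 and 315 in shControl. All shBrca2 libraries were below all shControl libraries, with shBrca2 library 1 the nearest to them. The log2 fold change was -0.73 ± 0.21 (adjusted p = 0.0417), or 0.601 of the shControl level. This call depended on the test, since edgeR gave an adjusted p of 0.121 at a log2 fold change of -0.73. It was also lost without shBrca2 library 2 (0.265), shBrca2 library 3 (0.511) or shControl library 2 (0.583). Zyx lies at chr6:42349511-42360213 on the plus strand (GRCm38.p6). Its stretch is shown as that of the other gene called lower, and it too holds no CArG box. These 150 bases (chr6:42349678-42349827) lie inside the RefSeq gene span, ahead of the start that the RefSeq table uses.
Zyx: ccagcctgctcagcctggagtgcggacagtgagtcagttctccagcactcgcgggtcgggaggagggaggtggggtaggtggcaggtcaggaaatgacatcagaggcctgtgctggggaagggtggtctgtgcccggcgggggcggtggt

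The plot of values by library shows the 4 called genes beside the 4 other genes of the list with the smallest p.

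**Figure D2:**
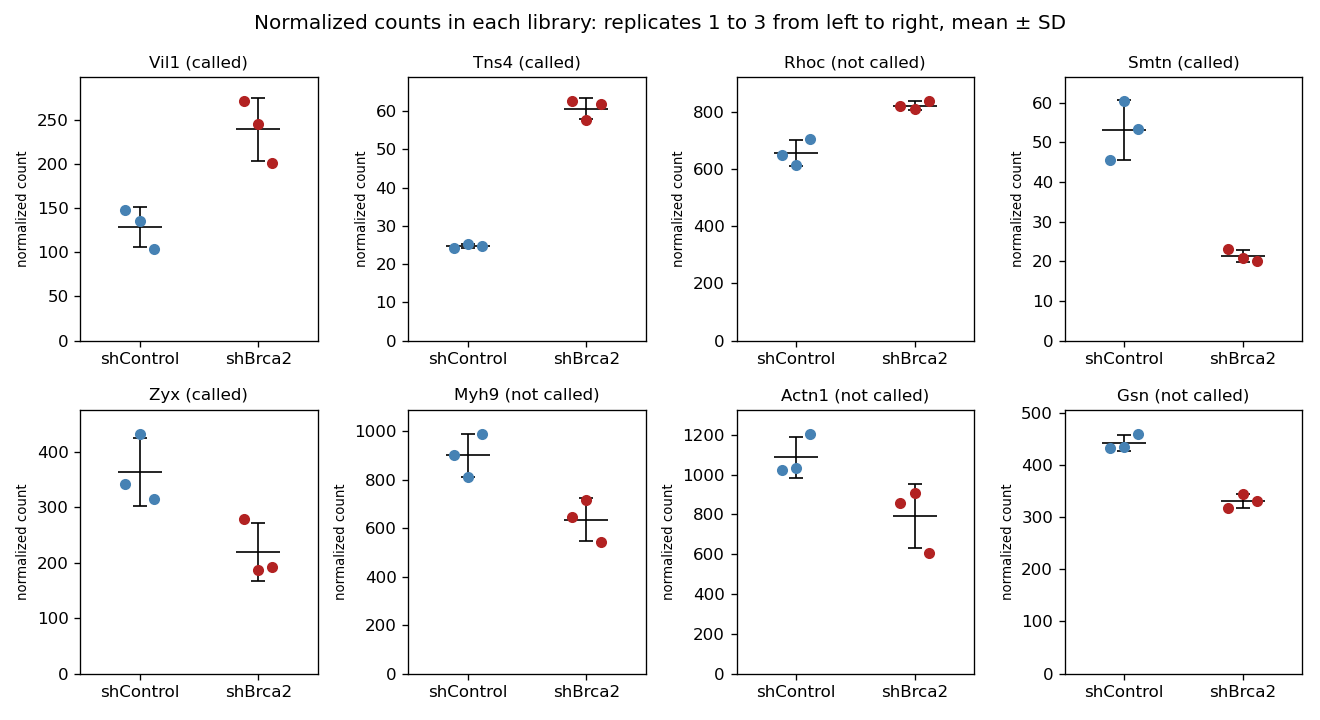
Normalized counts (y axis, from 0) in each library of shControl (blue) and shBrca2 (red) for the 4 called genes and for Rhoc, Myh9, Actn1 and Gsn, with the mean (horizontal line) and SD (bars) of the 3 libraries. In all 8 genes the groups do not overlap, and the libraries of a group lie close together for Tns4, with shBrca2 at 62.7, 57.7 and 61.8 and shControl at 24.2, 25.2 and 24.7.

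Among the other adhesion genes, Tln1, Pxn and Parva were below in every shBrca2 library and Ilk was above. Talin 1, encoded by Tln1, links integrins to actin, and had 492, 616 and 549 normalized counts in shBrca2 and 694, 695 and 649.6 in shControl (log2 fold change -0.30 ± 0.15, adjusted p = 0.582). The highest shBrca2 library was below the lowest shControl library, but the change did not pass the test. The scaffold paxillin, encoded by Pxn, was at -0.28 ± 0.18 (adjusted p = 0.728). Parva, encoding an ILK-binding parvin, was at -0.37 ± 0.23 (adjusted p = 0.716), while Ilk itself, the integrin-linked pseudokinase, was at 0.22 ± 0.17 (adjusted p = 0.834). Taf10, on the opposite strand from Ilk, was at -0.52 ± 0.18 (adjusted p = 0.181). Ptk2, encoding focal adhesion kinase, stood at 0.14 ± 0.23 with overlapping groups.

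None of the 7 nonmuscle myosin genes was called by DESeq2 or by edgeR, and 1, Myh9, had an unadjusted p under 0.05. Myh9 encodes the heavy chain of nonmuscle myosin IIA, the motor of stress fibers. It had 646, 717 and 542 normalized counts in shBrca2 and 902, 812 and 989 in shControl. All shBrca2 libraries were lower, and the log2 fold change was -0.50 ± 0.16 with an adjusted p of 0.119, just outside the threshold. It was called when size factors came from TMM (0.0914) or from total counts (0.0959) and without shBrca2 library 2 (0.0642), and had an adjusted p of 0.598 without shBrca2 library 3. Myh14, encoding the heavy chain of myosin IIC, was above in every shBrca2 library at 24.5, 31.2 and 20.01 normalized counts in shBrca2 against 19.2, 19.3 and 16.8 in shControl (log2 fold change 0.45 ± 0.44, adjusted p = 0.884). The third heavy chain gene, Myh10, was near the detection floor of 3 counts, with a base mean of 4.76, and no direction was read from it.

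No light chain gene was called. Myl12a, a regulatory light chain gene, was even, at 2076, 2085 and 2084 normalized counts in shBrca2 and 1849, 2013 and 2137 in shControl (log2 fold change 0.06 ± 0.13). Its near-identical neighbor Myl12b stood at 0.29 ± 0.18, and the essential light chain gene Myl6 at -0.07 ± 0.20. Whether reads of Myl12a and Myl12b match both genes was not tested, so their separate values are uncertain. Myl9, the regulatory light chain of contractile cells, had a base mean of 7.83 and was high in shControl library 1 alone, at 23.2, 4.19 and 4.94 normalized counts in shControl against 5.45, 5.67 and 3.48 in shBrca2. Tagln was also highest in that library, and its part in the Myl9 value was not tested.

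Neither actin gene separated the groups. Actb, encoding beta-actin, ranked 5th of all genes by total count. It had 14236, 16849 and 9365 normalized counts in shBrca2 and 14482, 12374 and 16561 in shControl, so that shBrca2 libraries 2 and 3 held the highest and the lowest value of the 6. The log2 fold change of -0.10 ± 0.19 (adjusted p = 0.960) turned to 0.10 without shBrca2 library 3. Actg1, encoding gamma-actin, had 38.1, 51.05 and 70.5 normalized counts in shBrca2 and 39.4, 46.1 and 39.6 in shControl, with shBrca2 library 3 the highest (log2 fold change 0.37 ± 0.33, adjusted p = 0.871). In that library Actb was at its lowest. They are close paralogs, and how reads that match more than 1 gene were counted is not given in the sources used here. Neither was called by DESeq2 or edgeR, and 0 of the 2 had an unadjusted p under 0.05.

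Of the 10 genes for monomer binding, severing, capping and nucleation, 0 were called by DESeq2 and 0 by edgeR, and 1, Gsn, had an unadjusted p under 0.05. Gelsolin, encoded by Gsn, severs and caps filaments. It had 317, 345 and 332 normalized counts in shBrca2 and 432, 435 and 459.8 in shControl. The groups were well separated, with a within-group SD of 0.0546 at percentile 1.00. The raw counts were 233, 365 and 381 in shBrca2 and 428, 519 and 465 in shControl. As for Tns4, an SD this low can arise in sampling and does not show that the gene varies little. The log2 fold change of -0.42 ± 0.16 was under the minimum and had an adjusted p of 0.279. Cfl1, encoding the severing protein cofilin, had 4757, 7456 and 4762 normalized counts in shBrca2 and 6496, 6325 and 6839 in shControl, and shBrca2 library 2 was above all others (log2 fold change -0.21 ± 0.18, adjusted p = 0.855). Without that library its log2 fold change was -0.46 and its adjusted p 0.0386, still under the fold change minimum. The monomer buffer thymosin beta 4, encoded by Tmsb4x, had 2377, 3091 and 2295 normalized counts in shBrca2 and 2143, 2456 and 3379.6 in shControl, with no separation of the groups (log2 fold change -0.04 ± 0.18).

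Tmsb10, its relative, had 392, 385 and 403 normalized counts in shBrca2 and 495, 288 and 312 in shControl, even in shBrca2 and high in shControl library 1 (log2 fold change 0.11 ± 0.20, adjusted p = 0.960). Profilin 1, encoded by Pfn1, was below in every shBrca2 library at 142, 145 and 124 normalized counts in shBrca2 against 159, 153 and 179 in shControl, a difference that did not pass the test (log2 fold change -0.26 ± 0.20, adjusted p = 0.844). The Arp2/3 subunit genes went in both directions. Arpc2 had 3420.3, 3059 and 3395 normalized counts in shBrca2 and 3795, 3380.4 and 3372 in shControl (log2 fold change -0.10 ± 0.13), Arpc3 was at 0.14 ± 0.16, and Arpc5 was above in every shBrca2 library at 0.26 ± 0.16 (adjusted p = 0.695). The capping protein genes Capzb and Capg were at -0.13 ± 0.16 and -0.11 ± 0.17.

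The 3 membrane linkers, ezrin, radixin and moesin, tie cortical actin to the plasma membrane, and 0 were called by DESeq2 or edgeR or had an unadjusted p under 0.05. Ezr, the epithelial member, had 3303, 2731 and 3143 normalized counts in shBrca2 and 2775, 2481 and 2611 in shControl. The groups overlapped by 1 library, since shBrca2 library 2 was under shControl library 1 (log2 fold change 0.22 ± 0.14, adjusted p = 0.713). Rdx stood at 0.42 ± 0.31, and Msn, below in every shBrca2 library, at -0.14 ± 0.18.

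Rhoa, Rhob, Rhoc, Rac1, Cdc42, Rock1 and Rock2 encode signaling proteins upstream of the filaments, and DESeq2 and edgeR called none of them. Rhoc and Rock1 had an unadjusted p under 0.05. Rhoc, a GTPase close to RhoA, had 820.0, 810.1 and 838 normalized counts in shBrca2 and 649.7, 614 and 705 in shControl. All shBrca2 libraries were above all shControl libraries, by a log2 fold change of 0.33 ± 0.14 that was under the minimum (adjusted p = 0.431). Rhoa, the GTPase that activates the ROCK kinases, had 703, 645 and 627 normalized counts in shBrca2 and 664, 499.8 and 399 in shControl. Its groups overlapped through shControl library 1 (log2 fold change 0.34 ± 0.19, adjusted p = 0.644). Rock1, the kinase gene, was low, with 21.8, 18.9 and 21.8 normalized counts in shBrca2 and 11.1, 12.6 and 5.93 in shControl. They did not overlap, but the error was wide (log2 fold change 1.07 ± 0.53, adjusted p = 0.555). Rock2 had 69.5, 81.3 and 73.96 normalized counts in shBrca2 and 46.5, 88.9 and 88.99 in shControl, with shControl library 1 the lowest and a log2 fold change of 0.0014 ± 0.29 whose sign differed between settings. Cdc42, Rhob and Rac1 stood at 0.19, 0.06 and -0.04 on the log2 scale. In Rhob, Rac1 and Rock2 the sign turned under at least 1 alternative. The formin gene Diaph1, which RhoA activates, had 153, 144 and 157 normalized counts in shBrca2 and 186, 148 and 169 in shControl (log2 fold change -0.15 ± 0.20, adjusted p = 0.936).

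Srf encodes the transcription factor that binds CArG boxes. It had 38.1, 22.7 and 23.5 normalized counts in shBrca2 and 33.3, 27.7 and 36.6 in shControl. The highest value was in shBrca2 library 1 and the groups overlapped (log2 fold change -0.23 ± 0.39, adjusted p = 0.951). Its coactivator genes were lower in every shBrca2 library without passing the test. Mrtfa had 154, 127 and 129.7 normalized counts in shBrca2 against 176, 168 and 175 in shControl (log2 fold change -0.34 ± 0.20, adjusted p = 0.682), and Mrtfb had 23.2, 24.6 and 22.6 in shBrca2 against 36.4, 40.3 and 26.7 in shControl (-0.56 ± 0.39, adjusted p = 0.783). Of 18 MRTF and SRF target genes and coactivators listed outside the 52, 11 were tested. In 9 of them the log2 fold change was below 0, and these 9 include Mrtfa and Mrtfb, given above. Of all 9997 genes tested, 5016 were below 0. The median of the 11 was -0.27. DESeq2 and edgeR called 0 of them, and 1 (Tuft1, -0.41 ± 0.18, adjusted p = 0.437) had an unadjusted p under 0.05.

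CArG boxes were then looked for in RefSeq promoter windows of GRCm38.p6, from 250 bases before to 50 after each start. A window was at hand for 45 of the 52 genes and was missing for Actb, Pxn, Ptk2, Parva, Tns4, Rac1 and Rock1. A CArG box, a motif that reads alike on both strands, was found in 8 of the 45 (17.8%), in 134 of the 8544 genes of the table with a window (1.57%) and in 7 of 87 other cytoskeletal genes (8.05%). The list was put together from genes of this system, many of them known SRF targets, so the share describes the list. The boxes of these 8 genes are shown in capitals within 40 bases. They lie at chr1:74409296-74409335 (plus strand) for Vil1, chr2:156775288-156775327 (plus) for Myl9, chr10:79988529-79988568 (plus) for Cnn2, chr10:128493035-128493074 (minus) for Myl6, chr11:120348561-120348600 (minus) for Actg1, chr14:20929156-20929195 (plus) for Vcl, chr15:99820172-99820211 (minus) for Lima1, and chr17:46556220-46556259 and chr17:46556200-46556239 (minus) for the 2 overlapping windows of Srf. Those of Myl6, Lima1 and Srf lie inside the RefSeq gene span, ahead of the start that was used.
Vil1: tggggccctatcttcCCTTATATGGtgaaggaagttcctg
Myl9: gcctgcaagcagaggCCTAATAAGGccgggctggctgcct
Cnn2: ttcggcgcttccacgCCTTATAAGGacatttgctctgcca
Myl6: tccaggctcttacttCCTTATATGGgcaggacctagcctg
Actg1: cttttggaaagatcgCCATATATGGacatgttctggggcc
Vcl: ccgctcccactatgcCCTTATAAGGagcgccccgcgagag
Lima1: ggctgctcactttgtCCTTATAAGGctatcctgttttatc
Srf: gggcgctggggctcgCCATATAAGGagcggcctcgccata
Srf: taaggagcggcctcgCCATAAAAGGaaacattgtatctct

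The genes with a box had no common direction. Of the 8, Vil1 was called, 4 had a log2 fold change above 0, and the median was 0.12 with a range of -1.15 for Myl9 to 0.89 for Vil1. Of the 37 with a window and no box, 2 were called and the median was 0.0014. The letters GGAATG, the core of the motif bound by TEAD factors, were found on either strand in 10 of the 45 windows' genes (22.2%) and in 14.2% of the genes of the table with a window. Of the 3 called genes with a window, Smtn held them and Vil1 and Zyx did not. A match is a description of the letters and not a site of binding.

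The spread between libraries of a group was measured as the pooled within-group SD of log2(normalized count + 1), over the 49 genes of the list with a base mean of at least 20. Its median was 0.190, against 0.220 in the 7796 genes of the table at or above that level, and 2 of the 49 (4.08%) were over the 90th percentile of all such genes. These were Tpm4 and Vcl. Tpm4, encoding a short nonmuscle tropomyosin, had 1043, 249.6 and 665 normalized counts in shBrca2 and 929, 199.6 and 156 in shControl. Library 1 was the highest in both groups, although the labels do not link the numbers across groups. The highest library exceeded the lowest by 4.18 times in shBrca2 and 5.94 times in shControl. Its SD of 1.23 was at percentile 99.3, and its log2 fold change of 0.61 ± 0.94 (adjusted p = 0.943) ranged from 0.092 without shBrca2 library 1 to 1.87 without shControl library 1. Vcl, encoding the adhesion protein vinculin, had 241, 252 and 257 normalized counts in shBrca2 and 249.6, 196 and 74.2 in shControl. It was even in shBrca2 and in shControl library 1, and shControl library 3 was the lowest by far. Its SD was 0.651 (percentile 96.7), and its log2 fold change of 0.53 ± 0.49 (adjusted p = 0.876) was 0.17 without that library.

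**Figure D3:**
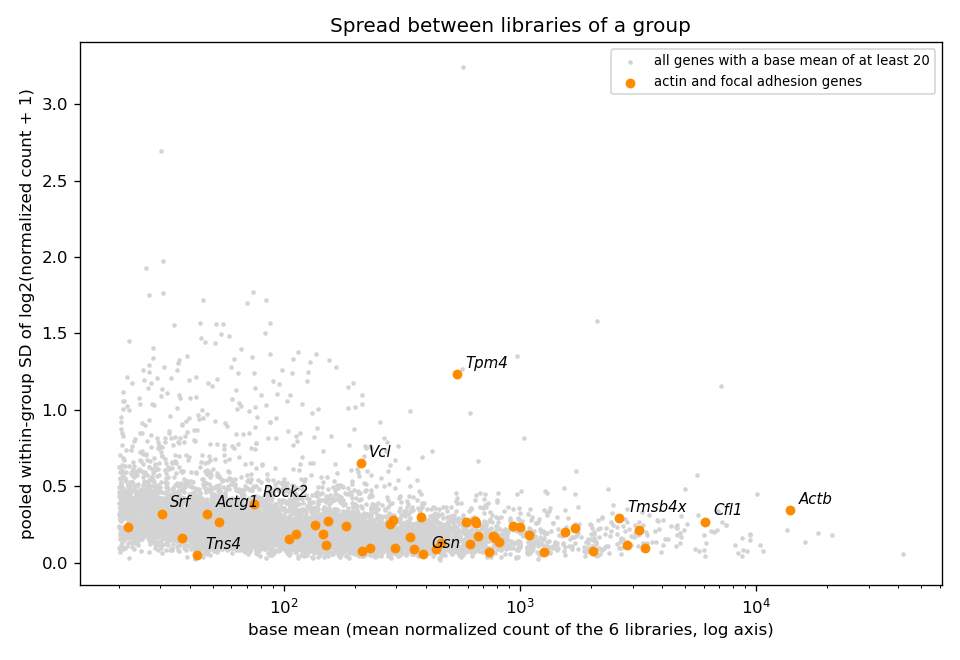
Pooled within-group SD of log2(normalized count + 1) (y axis) against the base mean (x axis, log scale) for the 7796 genes with a base mean of at least 20 (grey) and for the 49 genes of the list (orange). Tpm4, at 1.23, and Vcl, at 0.651, stand above the other orange points, and Tns4, at 0.0481, is among the lowest.

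The list did not sit at the same level in every library. The shBrca2 library 3 had the lowest value in 16 of the 49 genes (32.7%), where it was the lowest in 22.9% of all genes at that level. The median deviation from the gene's mean was -0.091 on the log2 scale for the list in that library and 0.00498 for all genes. In the 5 other libraries the list's median lay between -0.018 and 0.087. Without shBrca2 library 3 the median log2 fold change of the list was 0.041 in place of -0.017. Actb, Tpm1, Tpm3, Cnn2, Myh9, Actn1, Flna, Capg and Capzb were among the genes with their lowest value there, and Actg1 and Lima1 had their highest. As a share of all counts the list took 2.58%, 2.82% and 2.21% in shBrca2 libraries 1, 2 and 3 and 2.59%, 2.53% and 2.89% in shControl libraries 1, 2 and 3. The ranges overlapped, at 2.54% ± 0.308 (SD, n = 3) and 2.67% ± 0.190, and Actb alone gave 0.652% ± 0.181 and 0.702% ± 0.110.

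**Figure D4:**
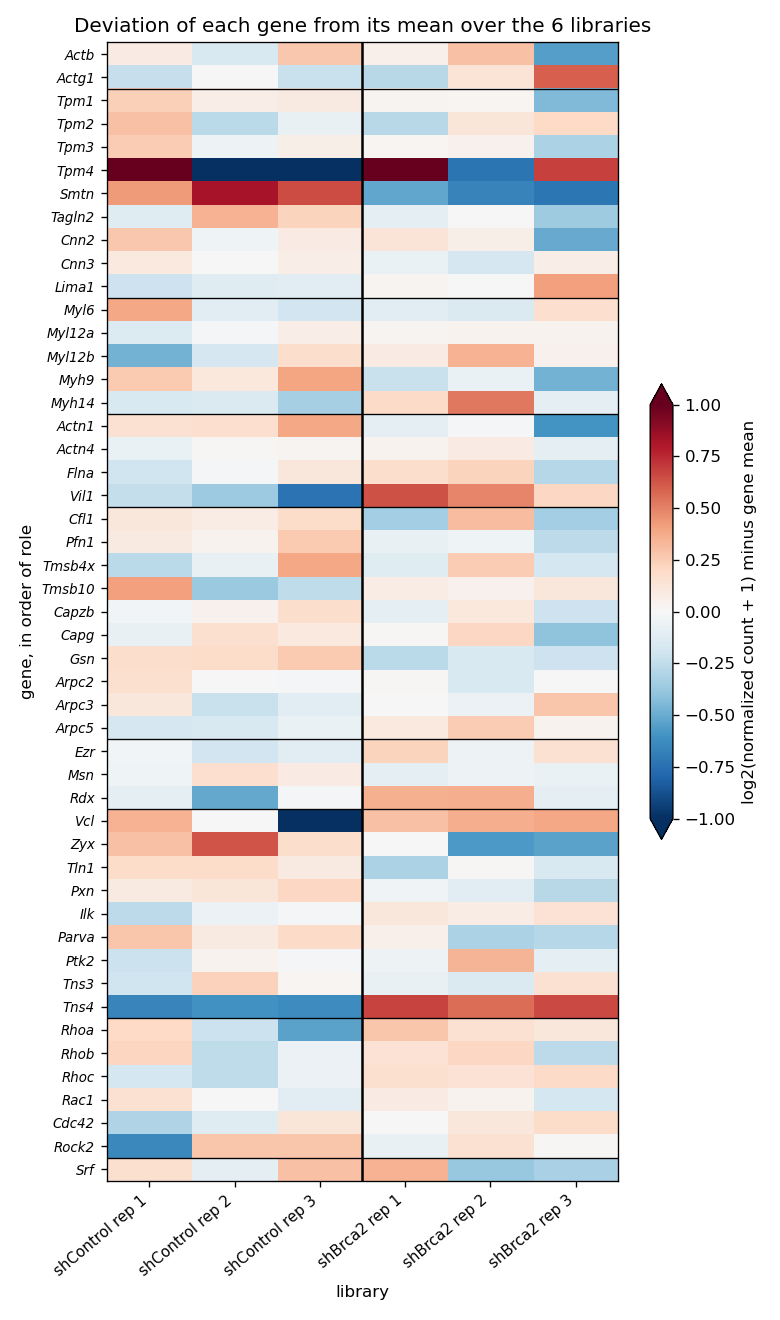
Deviation of each of the 49 genes (rows, in order of role) from its own mean over the 6 libraries (columns), on the log2(normalized count + 1) scale, red above and blue below the mean, with colours ending at 1 in either direction. Smtn and Zyx are red in shControl and mostly blue in shBrca2, Vil1 and Tns4 the reverse, the Tpm4 row changes within each group, and blue is frequent in the column of shBrca2 library 3, where 16 of the 49 genes have their lowest value.

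Further genes of the same system, listed by role outside the 52, were read from the same test. Of 118 listed, 106 were in the table and 102 tested, and 3 were called, 1 higher and 2 lower (2.94%, against 1.27% of all genes tested). Cotl1, encoding the filament-binding coactosin-like protein, had 534, 530.3 and 563 normalized counts in shBrca2 and 286, 343 and 294 in shControl. The groups were far apart (log2 fold change 0.82 ± 0.16, adjusted p = 0.000150), and Cotl1 was called with every library left out in turn. Ajuba, a LIM-domain adhesion protein gene of the zyxin family, had 211, 242 and 268 normalized counts in shBrca2 and 523, 378 and 378 in shControl, lower in every shBrca2 library, with shControl library 1 the highest. Its log2 fold change was -0.82 ± 0.19 (adjusted p = 0.00471), and its call was lost only without shBrca2 library 1 (0.101).

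Myo1c, encoding a membrane-linking class I myosin, had 1058, 944 and 875 normalized counts in shBrca2 and 1274, 1488 and 1325 in shControl, again with no overlap. It was just past the fold change minimum (-0.51 ± 0.15, adjusted p = 0.0502), and was not called by edgeR (0.122) or without shBrca2 library 2, shBrca2 library 3, shControl library 2 or shControl library 3 (0.131 to 0.456). By role, 1 of 36 nucleation, capping and turnover genes, 1 of 33 crosslinking and contractility genes, 1 of 22 adhesion genes and 0 of 11 MRTF and SRF targets and coactivators were called. At an unadjusted p under 0.05 the counts were 3, 7, 3 and 1, or 14 of the 102 tested (13.7%), where 8.66% of all genes had such a p. The median log2 fold change of the 102 was -0.021, with 50 above 0 and 52 below, so that these genes too were spread on both sides.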

How the data were processed

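RNA of KPC cells was measured by a variation of MARS-seq, a 3' end method, in 3 shBrca2 and 3 shControl libraries, grouped by the source name in the labels. Values as deposited are raw counts for each gene symbol, and the authors neither normalized nor pooled them. The submitters' processing notes name STAR 2.4.2a, HTSeq and mm10. Whether molecular identifiers were used, the annotation and the strand setting are not given in the sources used here.

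DESeq2 1.42.0 (R 4.3.3) was fitted over all 10616 genes by the likelihood ratio test for group that the study's methods name, with size factors by median of ratios and Benjamini-Hochberg adjustment. Independent filtering removed genes with a base mean below 4.64, and fold changes were not shrunken. Calls needed an adjusted p below 0.1, a log2 fold change beyond 0.5 in either direction and a base mean above 5. Plots and SDs on the log2 scale used a pseudocount of 1. The test scripts were tested on simulated data.

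The members and gene lists were chosen with earlier results of these data known, so no gene set was tested. Values in every library are given for the called members, the 8 others with the smallest p, the 6 with the highest mean, the 8 with the widest within-group SD, Srf, the called genes of the other lists, Diaph1, Mrtfa and Mrtfb. Other members are given by range or single values, and those printed per library beyond the rule (Tpm1, Myh14, Myl9, Myl12a, Pfn1, Tagln and Selenom) were chosen after their values were seen. Alternatives were edgeR 4.0.16 (quasi-likelihood test), the Wald test, TMM factors or total counts, other count filters and thresholds, and each library left out in turn. Coordinates and sequences came from RefSeq on GRCm38.p6, and overlapping genes from GENCODE vM39.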

Additional observations from a re-analysis of the deposited data

How the results depend on the processing

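Under the 8 settings that keep all 6 libraries, the number of called members stayed between 3 and 5: edgeR did not call Zyx, and TMM factors or total counts added Myh9. No such setting turned the sign of a member other than Rock2 (-0.0044 with total counts). Over all genes the count was 94 to 131 under these settings. The count of other pathway genes called was 5 when genes with at least 10 counts in 3 libraries were fitted, and the cause was not tested. The share of counts taken by the members was 2.19% of the total without the 20 genes of the highest count, which include Actb, in place of 2.60%.

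Leaving out each library in turn, which leaves fewer samples, moved the results more. All genes called ranged from 47 without shBrca2 library 3 to 140 without shControl library 1, with 55 without shControl library 2 and 81 without shBrca2 library 1. Called members ranged from 1 to 4, members whose groups did not overlap from 21 to 27 (40.4% to 51.9%, where 28.5% to 35.7% of all genes did not overlap with 1 library fewer), and pathway genes called from 2 to 4. Called members were 1 to 2 in the higher direction and 0 to 2 in the lower. The median log2 fold change of the members ranged from -0.044 to 0.041 and the median within-group SD from 0.142 (without shBrca2 library 3) to 0.205, with 0.156 without shControl library 1. Brca2 ranged from -1.70 to -1.46. In 13 members the log2 fold change changed sign, and all of them were uncalled in every such fit: Actb ranged from -0.30 to 0.10, Actn4 from -0.018 to 0.069, Capg from -0.25 to 0.048, Flna from -0.013 to 0.23, Myl6 from -0.18 to 0.13, Ptk2 from -0.012 to 0.23, Rac1 from -0.097 to 0.040, Rhob from -0.042 to 0.20, Rock2 from -0.25 to 0.15, Tmsb10 from -0.037 to 0.39, Tmsb4x from -0.19 to 0.17, Tns3 from -0.15 to 0.072 and Tpm2 from -0.082 to 0.21. Of 701 comparisons of a member with an alternative, 662 kept direction and side of the threshold, and 27 more gave no adjusted p. At 1519340 counts in the smallest library, genes such as Myl9, Myh10 and Rock1 had too few counts for a narrow error. No paired analysis was possible because the labels give no replicate number that links the groups.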

Other observations

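The cytoskeletal genes given here are outside the members and were chosen after their values were seen. Pdlim1, Pls3 and Actr2 came near the thresholds. Pdlim1, encoding a LIM-domain partner of alpha-actinin, was above in every shBrca2 library with a log2 fold change of 0.45 ± 0.14 (SE; DESeq2, adjusted p = 0.102). The bundling protein gene Pls3 had 305, 215 and 285 normalized counts in shBrca2 and 208, 149 and 70.2 in shControl (log2 fold change 0.91 ± 0.29, adjusted p = 0.111). Actr2, an Arp2/3 subunit gene, was also above in every shBrca2 library at 0.62 ± 0.20 (adjusted p = 0.132). The capping protein alpha subunit genes were not near the adjusted p threshold and are given for their spread. Capza1 had 272, 112 and 278 normalized counts in shBrca2 and 225, 191 and 47.5 in shControl (log2 fold change 0.51 ± 0.72, adjusted p = 0.939). Capza2 had 188, 53.9 and 68.7 in shBrca2 against 166, 32.7 and 28.7 in shControl (0.45 ± 0.95, adjusted p = 0.967). As for Tpm4, library 1 was the highest for Capza2 in both groups, whose library numbers the labels do not link.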
